A study of Macaca mulatta with 24 samples.

Results

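The genes described here are the MHC class II chains of the rhesus macaque, whose symbols begin with MAMU-D, together with CD74, the invariant chain that accompanies newly made class II molecules. All non-control probes whose gene name on the array was CD74 or CIITA, or began with MAMU-D or HLA-D, were taken, with no regard to their signal. They were 25 of the 43603 probes and stood for 12 of the 14828 named genes: CD74, MAMU-DRA, MAMU-DRB1, MAMU-DRB5, MAMU-DPA, MAMU-DPB, MAMU-DQA1, MAMU-DQB1, MAMU-DMA, MAMU-DMB, MAMU-DOA and MAMU-DOB. No probe carried the name CIITA or a name that began with HLA-D. To be tested, a probe had to exceed its background clearly on 4 or more of the 24 arrays. This held for 24 of the 25, among 27138 probes in all, and the other, a MAMU-DRB1 probe, was above background on 0 arrays. A further 14 probes, 13 of them tested, had a class II chain or the class II transactivator in their description but an uncharacterised locus number as their name. They are described only where a result touches them.

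RNA came from whole blood of adult rhesus macaques of Chinese origin that received a single total body irradiation of 4 Gy, with no further treatment. The 24 arrays were 7 from blood drawn before irradiation, 4 from day 3, 6 from day 5 and 7 from day 7 after it. The pre-irradiation arrays and the day 7 arrays carry replicate numbers 1 to 7, of which 4 are labelled male and 3 female. The day 3 arrays carry numbers 1, 2, 4 and 7, and the day 5 arrays numbers 1, 2, 3, 4, 6 and 7. Arrays of the same number deviated together from the means of their groups, so the number is called the animal number here. The labels give the radiation as X-rays and the pre-irradiation blood as day 0, whereas the study's methods name a cobalt gamma source and blood drawn some days earlier. The labels give no ages and no genotypes, and no sham-irradiated animal is among the arrays, so time after irradiation and time since the first blood draw cannot be told apart.

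MHC class II molecules are pairs of an alpha and a beta chain that present peptides from ingested or internal proteins to CD4+ T cells. The pairs DR, DP and DQ sit on the surface of B cells, monocytes and dendritic cells. CD74 blocks their groove until they reach the endosome, where the pair DM exchanges the last fragment of CD74 for a peptide, and the pair DO, made mainly by B cells, holds DM back. Transcription of most of these genes depends on the transactivator CIITA, which works through the RFX and NF-Y factors on their promoters, and macaques, like humans, carry many alleles and a variable number of DRB genes.

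Each probe is a 60-base DNA strand that binds the matching transcript. The probes below are those on which the results turn. The probes of the DO chains and CD74 overlapped no probe of another class II gene, except that the MAMU-DOB probe overlapped one of LOC100428435, described as a DRB chain, over 40 bases with 7 mismatches. They are shown in lower case because no part is singled out.
MAMU-DOA (brighter probe): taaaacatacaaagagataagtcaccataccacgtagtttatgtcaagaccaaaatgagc
MAMU-DOA (second probe): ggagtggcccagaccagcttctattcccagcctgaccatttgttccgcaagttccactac
MAMU-DOB: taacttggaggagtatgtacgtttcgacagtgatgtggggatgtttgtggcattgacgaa
CD74: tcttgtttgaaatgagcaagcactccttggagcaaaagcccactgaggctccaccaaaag
MAMU-DRA: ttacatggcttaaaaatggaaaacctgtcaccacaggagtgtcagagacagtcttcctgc
MAMU-DQB1: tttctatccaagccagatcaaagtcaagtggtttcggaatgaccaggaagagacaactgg

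Other probes show how alleles and gene copies meet on the array. The 2 MAMU-DPA probes overlap by 54 bases and differ at 5 of them, which are in capitals, as is the 1 base that separates the 2 overlapping MAMU-DQA1 probes.
MAMU-DPA (brighter probe): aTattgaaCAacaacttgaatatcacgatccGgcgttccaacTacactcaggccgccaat
MAMU-DPA (second probe): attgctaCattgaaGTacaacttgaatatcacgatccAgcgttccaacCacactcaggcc
MAMU-DQA1 (one probe): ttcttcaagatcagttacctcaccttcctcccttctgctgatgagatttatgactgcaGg
MAMU-DQA1 (the other of these probes): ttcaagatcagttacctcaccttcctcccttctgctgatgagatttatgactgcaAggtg

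The brightest probes of MAMU-DRB1 and MAMU-DRB5 hold the same 30 bases, in capitals, at opposite ends, so a transcript of either gene can bind both.
MAMU-DRB1 (brightest probe): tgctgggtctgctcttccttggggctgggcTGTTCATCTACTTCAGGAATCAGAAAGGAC
MAMU-DRB5 (brightest probe): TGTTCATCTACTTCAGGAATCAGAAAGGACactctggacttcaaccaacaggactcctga

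These and the other MAMU-DRB5 probes also overlapped probes of LOC705588 or LOC100428435 at 80.0% to 100% identity, and their signals cannot be assigned to 1 gene copy. No overlap was found for the other MAMU-DRB1 probes. The scanner output, whose header names the rheMac2 build, placed 17 of the 25 probes on chromosome 4 and the CD74 probe on chromosome 6, at chr6:146880060-146880119 on the minus strand, and left 7 unplaced. The MAMU-DOA probes lay at chr4:32712828-32712887 and chr4:32714269-32714328 and the MAMU-DOB probe at chr4:32503765-32503824, all on the minus strand. The output gives no exon or UTR for them.

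Signals are given as log2 processed signal after each array was shifted to a common median array, so that 1 unit is a doubling, and a gene is represented by its brightest probe unless another is named. Between 48.3% and 61.2% of all probes were well above background on an array. The offset of an array from the median array, which was subtracted from its signals, ranged from -2.03 to 0.87. The lowest, -2.03, was that of animal 2 on day 7, whose signals were therefore raised. The arrays were scanned in 2 sessions, and all day 3 and day 5 arrays fell in the second, with 1 pre-irradiation and 1 day 7 array, both of animal 5. Of 16 B cell markers tested, 14, 13 and 12 fell on days 3, 5 and 7 (limma adjusted p under 0.005), against 7.55%, 9.1% and 7.19% of all named genes, and the mean signal of that list was 10.2 to 10.5 before irradiation, 7.03 to 7.84 on day 3, 7.00 to 7.74 on day 5 and 6.79 to 8.08 on day 7. Of 12 monocyte markers 5, 4 and 1 rose, against 5.89%, 6.23% and 2.69% of all named genes, and the mean of that list was 11.1 to 11.7, 12.6 to 12.9, 12.2 to 12.7 and 11.6 to 12.8. In whole blood, fewer cells of a type and less RNA per cell cannot be told apart.

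The chains of the DO pair were the class II genes that passed the test after irradiation. On the processed signal MAMU-DOA, the alpha chain, was 6.26-fold lower on day 3, 7.46-fold lower on day 5 and 5.17-fold lower on day 7. MAMU-DOB, the beta chain, was 3.89-fold, 6.29-fold and 5.76-fold lower. On each day 3 of the 24 tested probes, the 2 of MAMU-DOA and the 1 of MAMU-DOB, were called lower at a limma adjusted p under 0.005, and 0 were called higher. Over all probes tested 8.02% were called lower on day 3, 9.58% on day 5 and 7.27% on day 7, and 5.44%, 7.16% and 3.6% were called higher. By gene, 2 of 12 were called lower, against 7.55%, 9.1% and 7.19% of all named genes.

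MAMU-DOA gave 7.03, 7.45 and 8.21 as the lowest, median and highest log2 signal of the 7 pre-irradiation arrays. On day 3 the arrays of animals 1, 2, 4 and 7 gave 5.24, 5.40, 5.05 and 3.73. On day 5 the lowest, median and highest were 3.60, 4.50 and 6.30, and on day 7 they were 3.31, 5.04 and 6.96. Every array after irradiation lay below every pre-irradiation array, and animal 2 on day 7 came nearest to them. The group means were 7.50 ± 0.39 (SD, n = 7), 4.85 ± 0.76 (n = 4), 4.60 ± 0.97 (n = 6) and 5.13 ± 1.19 (n = 6). The spot of animal 7 on day 7 was rejected by the scanner software, so this value rests on 6 arrays. The probe was well above background on all 7 pre-irradiation arrays, but on only 2 of 4 on day 3 and 2 of 6 on day 5, and on 5 of 6 on day 7, where that of animal 1 was dim, so all 3 folds are set partly by dim signal. The log2 differences were -2.65 (SE 0.32, limma adjusted p = 0.000226), -2.90 (SE 0.37, adjusted p = 6.12e-05) and -2.37 (SE 0.43, adjusted p = 0.00126).

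The second MAMU-DOA probe moved the same way by less. Its pre-irradiation signals ran from 5.79 to 7.00, and those of days 3, 5 and 7 from 4.80 to 5.93, from 4.18 to 6.33 and from 4.15 to 6.35. On each day 1 array reached into the pre-irradiation range. The log2 differences were -1.22, -1.67 and -1.51, with limma adjusted p of 0.00481, 0.00116 and 0.00144.

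MAMU-DOB was above background on all 24 arrays, so its fold rests on measured signal on both sides. Its pre-irradiation arrays gave 8.79, 9.04 and 9.70 as lowest, median and highest. On day 3 animals 1, 2, 4 and 7 gave 8.35, 6.82, 7.11 and 6.38, so animal 1 stood apart from the other 3. On day 5 the lowest, median and highest were 5.68, 6.32 and 8.06, and on day 7 they were 5.40, 6.59 and 7.95, with animal 1 again the highest on both days. Nevertheless, all 17 arrays after irradiation lay below all 7 before it. For comparison, on day 3 12.4% of all probes lay wholly below the pre-irradiation arrays, on day 5 8.6% and on day 7 5.92%. The log2 differences were -1.96 (SE 0.32, limma adjusted p = 0.00111), -2.65 (SE 0.33, adjusted p = 5.83e-05) and -2.52 (SE 0.32, adjusted p = 5.7e-05).

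Compared with its own pre-irradiation array, each animal had less MAMU-DOA and MAMU-DOB signal at every later time at which it was measured. This was 4 of 4 animals on day 3 and 6 of 6 on day 5 for both genes, and on day 7 6 of 6 for MAMU-DOA and 7 of 7 for MAMU-DOB. Of all probes, 27% were lower in all 4 animals on day 3, 20.9% in all 6 on day 5 and 12.1% in all 7 on day 7. When the animal number entered the day 3 fit as a block, the call was lost, with 0 of 24 probes called and 2.8% of all probes. The log2 differences there were -2.46 for MAMU-DOA (adjusted p = 0.00539) and -1.87 for MAMU-DOB (adjusted p = 0.00797). Within the second scan session the only pre-irradiation array was that of animal 5, and all 4 day 3 and all 6 day 5 arrays lay below it for both genes. Their means differed from it by -3.36 and -3.62 log2 units for MAMU-DOA and by -1.69 and -2.38 for MAMU-DOB. With the session as a block, a fit that rests on this 1 array, 0 class II probes were called on day 3 and 0 on day 5, with adjusted p of 0.0114 and 0.00892 for MAMU-DOA and 0.131 and 0.0503 for MAMU-DOB. Without animal 2, 4 or 7 the MAMU-DOB call on day 3 was lost (adjusted p = 0.00789, 0.00956 and 0.00521), and without animal 3, 4 or 5 the MAMU-DOA call on day 7 (adjusted p = 0.00521, 0.00577 and 0.00755), and the probes called then numbered as few as 1 on either day. Under a normexp background with an offset of 50, neither gene passed on any day. That setting called 139, 239 and 315 of all probes on days 3, 5 and 7. The log2 differences were nearer 0, at -0.92, -0.49 and -0.73 for MAMU-DOA and -1.16, -1.16 and -1.34 for MAMU-DOB. The offset is added to every signal, which by itself draws the differences of dim probes toward 0. With the first session alone, day 7 against pre-irradiation gave a log2 difference of -2.19 for MAMU-DOA and -2.51 for MAMU-DOB, and only the MAMU-DOB probe stayed called. Which part of these differences went with the B cell markers, all of whose list means after irradiation lay below those before it, was not tested.

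**Figure D1:**
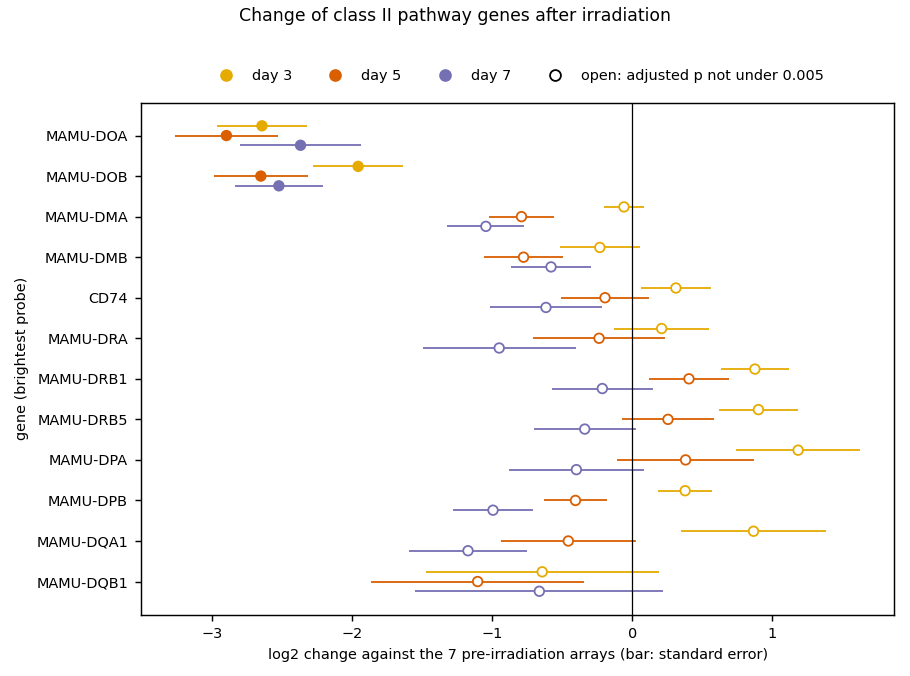
Difference of each gene's brightest probe from the 7 pre-irradiation arrays (horizontal axis, log2 units, bars are standard errors) on day 3, day 5 and day 7; filled points passed a limma adjusted p under 0.005. MAMU-DOA and MAMU-DOB lie between -2.90 and -1.96 on all 3 days, while the other 10 genes have open points and shift leftward from day 3 to day 7 in most cases.

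The DM pair catalyses the exchange that DO restrains. MAMU-DMA, its alpha chain, had pre-irradiation signals of 13.10, 13.23 and 13.45 (lowest, median, highest), the narrowest pre-irradiation range of the 12 genes. On day 3 animals 1, 2, 4 and 7 gave 13.20, 12.92, 13.35 and 13.29, so that only animal 2 left that range. On day 5 the signals were 11.83, 12.26 and 13.37 and on day 7 11.35, 12.30 and 13.38. Below all pre-irradiation arrays were 5 of 6 arrays on day 5 and 6 of 7 on day 7, and in both cases the array of animal 3 was the exception. The log2 differences of -0.06 (SE 0.14), -0.79 (SE 0.23) and -1.05 (SE 0.27) had adjusted p of 0.773, 0.0156 and 0.0112 and did not pass.

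MAMU-DMB, the beta chain, gave 13.34, 13.87 and 14.67 before irradiation. On day 3 it gave 12.99 in animal 1 and 13.99, 14.07 and 13.99 in animals 2, 4 and 7, and on days 5 and 7 its medians were 13.14 and 13.26. The groups overlapped on every day. Its log2 differences were -0.23 (SE 0.29), -0.78 (SE 0.28, adjusted p = 0.044) and -0.58 (SE 0.29), and none passed.

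Set against the DM chains on the same arrays, the DO chains were lower by more. The log2 difference between MAMU-DOA and MAMU-DMA changed by -2.59, -2.11 and -1.44 from before irradiation to days 3, 5 and 7, and that between MAMU-DOB and MAMU-DMB by -1.73, -1.88 and -1.94. These pairs were chosen after the values of their members were known and are given without a test.

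CD74, the invariant chain, did not pass the test on any day. It gave 14.14, 14.65 and 15.05 before irradiation as lowest, median and highest. On day 3 animals 1, 2, 4 and 7 gave 15.10, 14.17, 15.02 and 15.41. On day 5 the values were 13.14, 14.28 and 15.38 and on day 7 12.47, 13.92 and 15.08. Of the 7 day 7 arrays 4 lay below all pre-irradiation arrays and 1 above them. The log2 differences were 0.31 (SE 0.25), -0.19 (SE 0.31) and -0.62 (SE 0.40), with adjusted p of 0.344, 0.662 and 0.269.

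The DR chains form the class II molecule that is most abundant on blood leukocytes. MAMU-DRA, their alpha chain, gave 13.59, 14.66 and 14.86 before irradiation, and the lowest value, of animal 7, stood apart from the other 6. On day 3 animals 1, 2, 4 and 7 gave 14.57, 13.64, 15.24 and 15.48. The day 5 arrays ran from 12.43 to 16.14 about a median of 14.17, and the day 7 arrays from 11.06 to 15.48 about 13.31. The spread thus grew with time, from an SD of 0.43 before irradiation to 0.82, 1.30 and 1.54, and no difference passed, at 0.21 (SE 0.34), -0.24 (SE 0.47) and -0.95 (SE 0.55).

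MAMU-DRB1 and MAMU-DRB5, named as beta chains of DR, were higher on day 3 in 3 of 4 arrays than on any pre-irradiation array. MAMU-DRB1 gave 15.44, 16.15 and 16.33 before irradiation and 16.72, 16.28, 17.26 and 17.24 on day 3 in animals 1, 2, 4 and 7. The array of animal 2 was the one that did not exceed the pre-irradiation range. Its differences were 0.88 (SE 0.24, adjusted p = 0.0155) on day 3, 0.41 (SE 0.28) on day 5 and -0.21 (SE 0.36) on day 7. MAMU-DRB5, whose brightest probe shares 30 bases with that of MAMU-DRB1, gave 0.90 (SE 0.29, adjusted p = 0.0285), 0.26 (SE 0.33) and -0.34 (SE 0.36). None of these passed. Another MAMU-DRB5 probe gave differences of 0.12, -0.38 and -0.01 and thus differed from the brightest in direction on day 5. The probes described as DRB chains under the names LOC705588 and LOC100428435 gave differences of 0.51 to 0.85 on day 3 and of -0.45 to -0.09 on day 7.

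MAMU-DPA and MAMU-DPB are the alpha and beta chains of DP. MAMU-DPA gave 10.13, 11.37 and 11.99 before irradiation and 12.46, 11.38, 12.14 and 13.56 on day 3 in animals 1, 2, 4 and 7, of which all but that of animal 2 lay above the pre-irradiation range. Its difference on day 3 was the largest positive one of the 12 genes, 1.19 (SE 0.44, adjusted p = 0.0548), and did not pass. On days 5 and 7 it was 0.38 (SE 0.49) and -0.40 (SE 0.48). MAMU-DPB gave 16.28, 16.82 and 17.19 before irradiation and 14.89, 15.89 and 16.85 on day 7, where 5 of 7 arrays lay below all pre-irradiation arrays. Its differences were 0.38 (SE 0.19), -0.41 (SE 0.23) and -0.99 (SE 0.29, adjusted p = 0.0184), and its 4 other probes gave -0.81 to -1.07 on day 7. None of the 5 passed.

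MAMU-DQA1, the alpha chain of DQ, gave 11.64, 13.27 and 14.54 before irradiation, a range that held every array of day 5 and 5 of the 7 of day 7. Its differences were 0.87 (SE 0.52), -0.46 (SE 0.48) and -1.17 (SE 0.42, adjusted p = 0.0511). With the animal number as a block the day 3 difference was 0.18 (SE 0.33). Of the 4 animals of day 3, 2 were lower than on their own pre-irradiation array and 2 higher. The other MAMU-DQA1 probes gave 0.24 and 0.28 on day 3 without the block. MAMU-DQB1, the beta chain, had the widest pre-irradiation range of the 12 genes, from 7.16 to 12.65 about a median of 9.08. Its day 3 arrays gave 8.79, 7.72, 9.25 and 9.67 and all lay inside that range, as did all but 1 of the day 5 and all but 1 of the day 7 arrays. The differences of -0.64 (SE 0.83), -1.10 (SE 0.76) and -0.66 (SE 0.88) were of the order of their standard errors.

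**Figure D2:**
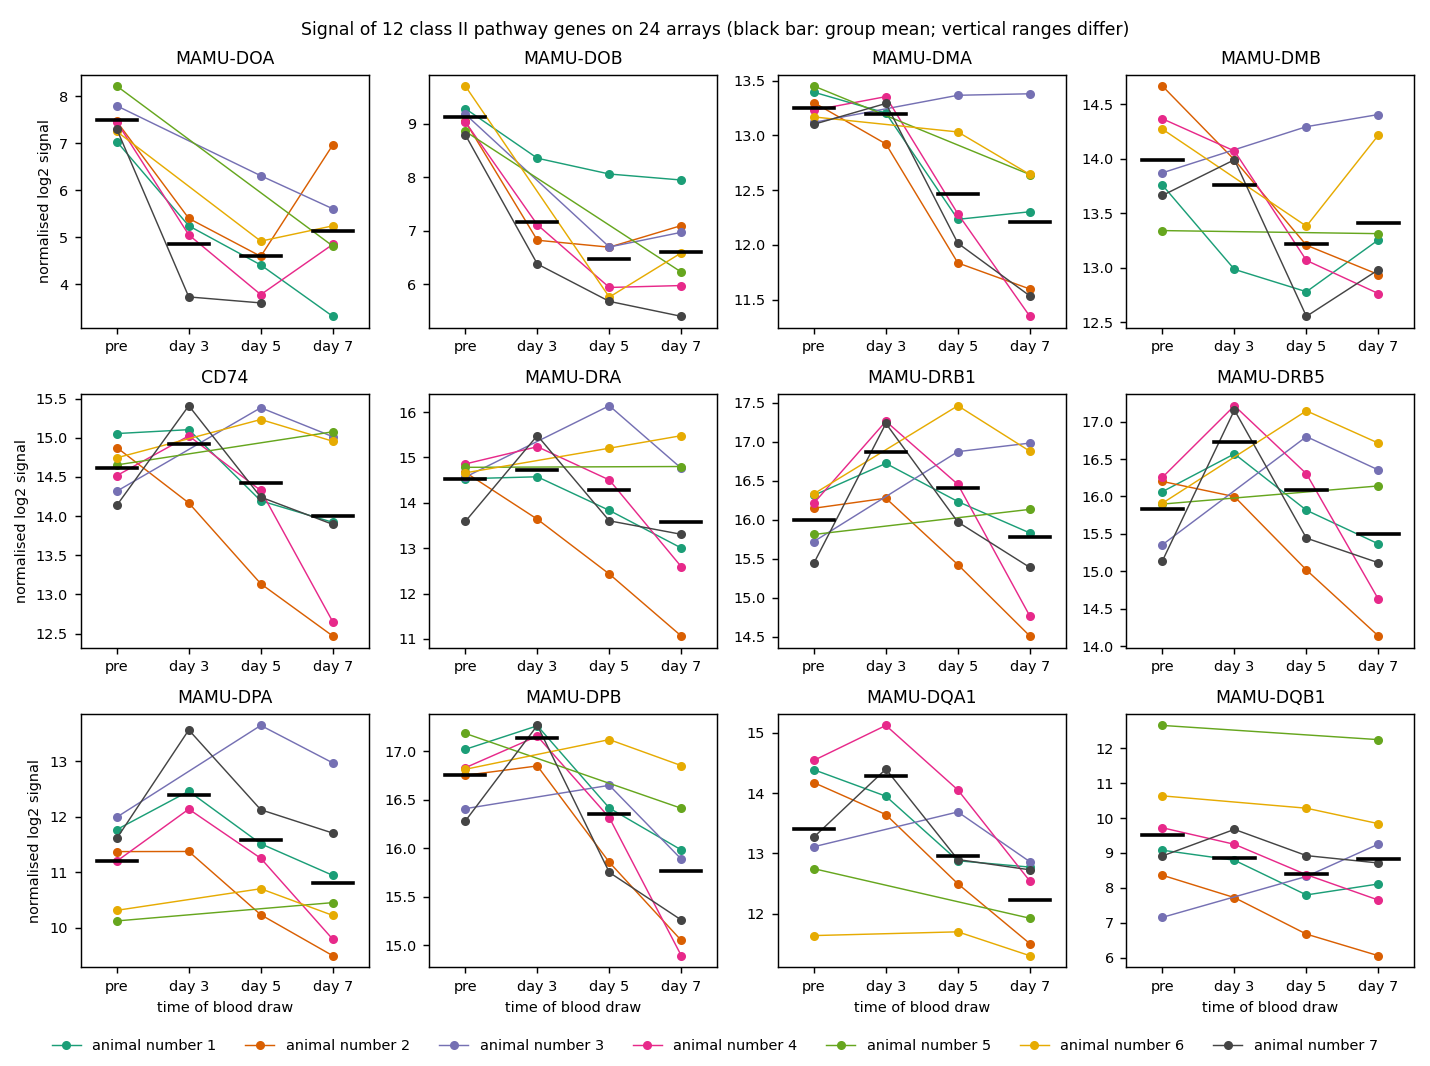
Normalised log2 signal (vertical axis, its range differs between panels) of the brightest probe of each of 12 genes by time of blood draw; coloured lines join arrays of 1 animal number and black bars are group means. For MAMU-DOA and MAMU-DOB all arrays after irradiation lie below all before it, while for CD74 and MAMU-DRA the animals spread apart, from 12.47 to 15.08 and from 11.06 to 15.48 on day 7.

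The 2 probes named LOC710761 have a gene number that the RefSeq table of the T2T-MMU8v2.0 assembly gives to CIITA. On the array's own build they lie on chromosome 20, at chr20:10993951-10994010 and chr20:10978665-10978722 on the plus strand. The brighter of them was well above background on 6 of 7 pre-irradiation arrays, on 4 of 4 of day 3, on 5 of 6 of day 5 and on 6 of 7 of day 7. It gave 5.86, 6.77 and 7.05 before irradiation, 6.02 to 6.97 on day 3, 5.44 to 7.46 on day 5 and 5.05 to 7.91 on day 7, and the groups overlapped. The log2 differences were -0.36 (SE 0.25, adjusted p = 0.287), -0.19 (SE 0.31) and -0.50 (SE 0.38), and those of the other probe -0.13, -0.38 and -0.53. None passed.

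Most class II probes had positive differences on day 3 and all had negative ones on day 7, though no probe other than those of the DO chains passed. On day 3 7 of 24 probes had a log2 difference below 0, on day 5 18 and on day 7 all 24. The medians over the 12 genes were 0.26, -0.43 and -0.81, while that over all named genes was -0.01 on each day. At an unadjusted limma p under 0.05 stood 6, 6 and 13 of the 24 probes, against 46.5%, 45.5% and 39.5% of all probes. Quantile normalization, which forces all arrays to 1 distribution, left 13 of 24 probes below 0 on day 5 and 20 on day 7, with gene medians of -0.14 and -0.44.

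Direct comparisons between days gave 0 class II probes called by limma, against 0.0184% of all probes for day 5 against day 3, 1.28% for day 7 against day 3 and 0.00368% for day 7 against day 5. At an unadjusted p under 0.05 there were 7, 14 and 0 of the 24, against 10%, 32.7% and 20.8% of all probes. For day 7 against day 3 23 of 24 probes had a difference below 0, with a gene median of -1.04. The lowest was that of MAMU-DQA1, with 13.64 to 15.12 on day 3 and 11.31 to 12.86 on day 7. That difference was -2.04 (SE 0.37, adjusted p = 0.00662), and it did not pass. The MAMU-DPB difference was -1.37 (SE 0.36, adjusted p = 0.0248).

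Animals 1, 2, 4 and 7 had an array at every time, so each could be followed from day 3 to day 5 and day 7. From day 3 to day 5 all 24 class II probes were lower in every 1 of these 4 animals, whereas 13% of all probes were lower in all 4 and 12.4% higher in all 4. The CD74 step ranged over the animals from -1.17 to -0.70 log2 units, that of MAMU-DRA from -1.88 to -0.73, that of MAMU-DQA1 from -1.50 to -1.07 and that of MAMU-DMA from -1.28 to -0.97. The steps of MAMU-DOA and MAMU-DOB, which were already low on day 3, ranged from -1.27 to -0.13 and from -1.17 to -0.13. The MAMU-DOA probe was not well above background on day 5 in any of these 4 animals, nor on day 3 in animals 4 and 7. Its steps therefore rest on dim signal. With the 75th percentile of each array as its reference the number was again 24 of 24 (11.6% of all probes), with quantile normalization 23 (11.9%) and with a normexp background 20 (11.2%).

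From day 3 to day 7 20 of the 23 probes measured on all 8 arrays were lower in all 4 animals, against 20.1% of all probes. The exceptions were the second MAMU-DOA probe and the MAMU-DMB and MAMU-DOB probes, each higher in 1 animal. The CD74 step ranged over the animals from -2.37 to -1.18 log2 units and that of MAMU-DRA from -2.65 to -1.57. Under quantile normalization the number was again 20 of 23 (18%), and with a normexp background it was 15 (6.72%). With the animal number as a block, limma gave -2.24 for MAMU-DRA (SE 0.26, adjusted p = 0.00696), -1.90 for MAMU-DPA (SE 0.23, adjusted p = 0.00749), -1.84 for MAMU-DPB (SE 0.24, adjusted p = 0.00953) and -1.69 for CD74 (SE 0.26, adjusted p = 0.0125). In that fit 0 of all probes passed an adjusted p under 0.005, and with 4 animals its precision was limited. Day 3 and day 5 were scanned in 1 session and day 7 of these animals in the other, so the step to day 7 and the session cannot be told apart, whereas the step from day 3 to day 5 lies within the second session. In each of the 4 animals the day 3 and day 5 arrays lay on different slides. With the slide as a block, limma called 0 class II probes for day 5 against day 3, as it did without the block.

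**Figure D3:**
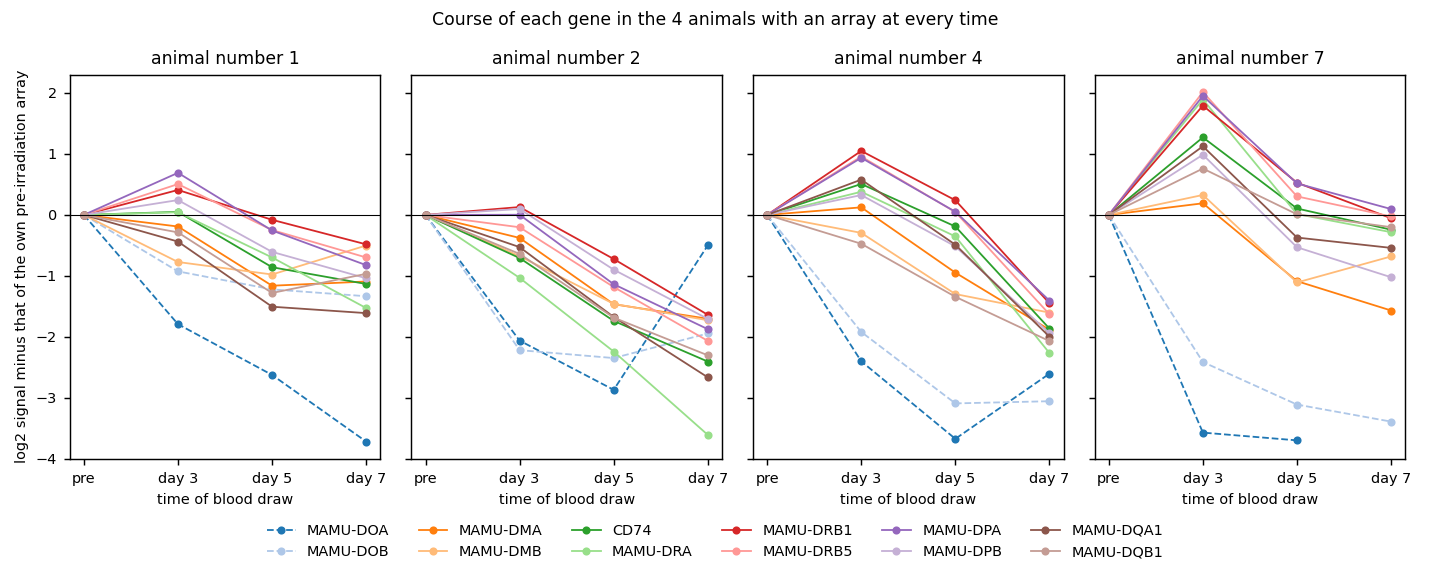
Log2 signal of each gene minus that of the same animal's pre-irradiation array (vertical axis) at the 4 times of blood draw in the 4 animals with an array at every time, one panel per animal; dashed lines are MAMU-DOA and MAMU-DOB. Every line is lower on day 5 than on day 3, and the dashed lines are below 0 at all times after irradiation.

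Against their own pre-irradiation arrays the animals differed in the sign of the change. Without the DO chains there were 10 genes to compare. On day 7 all 10 were lower in animals 1, 2 and 4, with medians of -1.003, -1.97 and -1.87, and 9 were lower in animal 7, with a median of -0.26. In animal 3 8 of the 10 were higher, with a median of 0.62, and in animals 5 and 6 5 were lower and 5 higher, with medians of -0.01 in both. On day 5 all 10 were lower in animals 1 and 2 and all 10 higher in animal 3. On day 3 all 10 were higher in animal 7, from 0.19 to 2.02, where the pre-irradiation array held the lowest signal of the 7 for 7 of the 12 genes, while 7 of 10 were lower in animal 2. Over all 7 animals, 7 of 23 probes, in 2 of 11 genes by the brightest probe, were lower in every animal on day 7, against 12.1% of all probes. The array of animal 2 on day 7 held the lowest signal for 6 of the 12 genes. It was also the array with the largest offset from the median array, -2.03, so its signals were raised by 2.03. What part this scaling had in the values was not tested.

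A response by sex could be tested on day 7, with 4 males and 3 females in both groups. No class II probe passed an adjusted p under 0.05 for the difference between the sexes (limma interaction), and 0 of all probes did. The largest difference among the brightest probes was that of MAMU-DRA, 1.99 higher in females (SE 0.98, limma unadjusted p = 0.0642, adjusted p = 0.587), which was also the lowest p of the 24 probes, so that 0 had an unadjusted p under 0.05.

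Some class II genes differed between animals on average over the times. With the group in the fit, 6 of 24 class II probes differed between animal numbers by a moderated F test at an adjusted p under 0.005, against 6.77% of all probes. They were the MAMU-DQB1 probe (adjusted p = 9.99e-05), both MAMU-DPA probes (0.000927 and 0.000277), the 2 overlapping MAMU-DQA1 probes (0.00414 and 0.00147) and a MAMU-DRB5 probe (0.0021). Animal numbers held 86.3% of the sum of squares within groups for MAMU-DQB1 and 81.1% for the brighter MAMU-DPA probe, and 54.5% for CD74 and 48.7% for the brighter MAMU-DOA probe. The median over all tested probes was 44.6%.

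MAMU-DQB1 shows this in single values. Animal 5 gave 12.6 before irradiation and 12.2 on day 7, the highest of their groups. Animal 6 gave 10.6 before irradiation, 10.3 on day 5 and 9.84 on day 7. Animal 2 gave 8.36 before irradiation and 7.72, 6.68 and 6.06 on the following days, and was the lowest of its group at every time after irradiation. By contrast, animal 3 changed its place, with 7.16 before irradiation, the lowest of the 7, and 8.33 and 9.25 on days 5 and 7. For MAMU-DPA it was animals 3 and 7 that stood highest on days 5 and 7 and animals 5 and 6 that stood lowest before irradiation, so the order of the animals was another. A probe of a polymorphic gene can also bind alleles unequally, and the part of allele sequence in these differences was not tested.

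**Figure D4:**
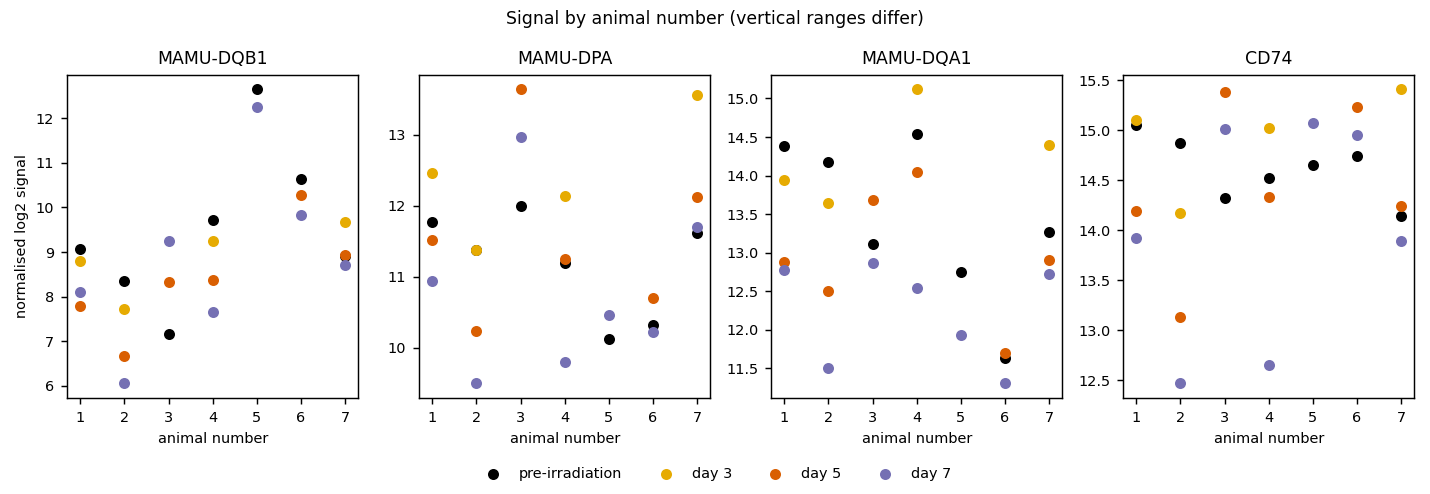
Normalised log2 signal (vertical axis, its range differs between panels) of MAMU-DQB1, MAMU-DPA, MAMU-DQA1 and CD74 by animal number, with 1 point per array coloured by time of blood draw. The MAMU-DQB1 points of animal 5, 12.6 and 12.2, lie above all others, whereas the CD74 points of animals 2 and 4 spread more than those of animals 5 and 6.

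Of the genes that serve class II transcription none was called lower. Of all named genes 7.55%, 9.1% and 7.19% were called lower on days 3, 5 and 7. Of 19 tested genes of a list that held CIITA's partners and its upstream signals, 2 rose on day 3, 4 on day 5 and 1 on day 7, against 5.89%, 6.23% and 2.69% of all named genes called higher, and the list medians were 0.52, 0.74 and 0.35, beside -0.01 over all named genes on each day. On day 3 JAK2, a kinase of the interferon gamma receptor, rose by 1.02 and EP300, a histone acetyltransferase, by 0.68. On day 5 IRF1, which interferon gamma induces and which drives a promoter of CIITA, rose by 1.17, CREBBP, an acetyltransferase, by 1.16, and PRDM1, a repressor of CIITA in plasma cells, by 0.89. On day 7 JAK1, the partner kinase of JAK2, rose by 1.10. The RFX and NF-Y subunits tested were not called on any day.

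Of 21 tested genes of class II loading and traffic, 7 rose on day 3, 3 on day 5 and 1 on day 7, and 1 fell on days 5 and 7, with list medians of 0.87, 0.45 and 0.24. Of all named genes 5.89%, 6.23% and 2.69% were called higher on the 3 days, and 9.1% and 7.19% were called lower on days 5 and 7. CTSD, cathepsin D, rose by 1.83, 1.68 and 1.31 on the 3 days, LGMN, the asparagine endopeptidase that cuts antigens, by 1.80 on day 3, and CTSB, cathepsin B, by 1.52 on day 3 and 1.13 on day 5. MARCH8, a ubiquitin ligase that removes class II and other proteins from the surface, fell by 1.26 on day 5 and fell by 1.71 on day 7. The monocyte list, whose mean was higher on every day 3 and day 5 array than before irradiation, moved with the cathepsins, and its part in these rises was not tested.

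Of 12 tested partners of class II on T cells and in costimulation, 1 was called lower on each day. Of all named genes 7.55%, 9.1% and 7.19% were called lower on days 3, 5 and 7. The gene was CD40, with differences of -2.15, -2.71 and -3.14. It is the receptor on B cells and other presenting cells for the CD40 ligand of T cells. On day 5 CD274 and PDCD1LG2, the ligands of the inhibitory receptor PD-1, rose by 2.71 and 2.50. Of all named genes 6.23% were called higher on that day. The medians of this list were 0.04, 0.10 and 0.19.

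Markers of the cells that carry class II moved in both directions. Among B cell markers VPREB3 was above background on 0 arrays after irradiation and at least 32.4-, 26.9- and 27.3-fold lower on days 3, 5 and 7. FCRL1 fell by 5.14 on day 3 and fell by 4.69 on day 5. CD79B, a chain of the B cell receptor complex, fell by 4.15 on day 3, and FCRLA fell by 4.65 on day 7. CD72, a B cell coreceptor, fell by 4.41 on day 5 and was at least 21.8-fold lower on day 7, when it was above background on 0 arrays. The list medians were -3.09, -3.28 and -3.15, and the differences of MAMU-DOB, the DO chain above background on all arrays, were -1.96, -2.65 and -2.52.

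Of 9 tested markers of conventional dendritic cells 2 were called lower on each day, against 7.55%, 9.1% and 7.19% of all named genes. CLEC9A was at least 4.12-fold lower on day 3, when it was above background on 0 arrays. CD1C fell on all 3 days, with differences of -2.10, -2.54 and -2.35, and FCER1A fell on days 5 and 7, with -1.97 and -2.50. The medians of that list were -1.03, -0.06 and -0.14. Of 4 tested markers of plasmacytoid dendritic cells TCF4 fell on each day, with differences of -1.98, -2.18 and -1.94, and PTCRA rose by 3.06 on day 3. The other 2, GZMB and NRP1, had positive differences that did not pass on any day, and the medians of the list were 0.41, 0.40 and 0.17. Monocyte markers rose, MS4A7 by 2.83 and 1.96 on days 3 and 5, LILRB1 by 2.11 on day 3 and FCN1 by 1.27 on day 5. The medians of the monocyte list were 1.34, 1.06 and 0.90, and on day 7 it was called for 1 gene of 12. On days 3 and 5 the list means of the B cell markers and of the monocyte markers each lay wholly on 1 side of those before irradiation, and their part in the class II values was not tested.

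For the markers of other cells, the shares of all named genes were again 7.55%, 9.1% and 7.19% called lower and 5.89%, 6.23% and 2.69% called higher on days 3, 5 and 7. Of 11 T cell markers 2 fell on day 3, LEF1 with a difference of -1.54 and TCF7 with -1.42, and none passed later. CSF3R, 1 of 6 neutrophil markers, rose by 1.72 and 1.82 on days 3 and 5. The 6 erythroid markers tested fell on all 3 days, and 5, 1 and 0 of 5 platelet markers rose.

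Over the 24 arrays, the named genes whose brightest probe followed that of CD74 most closely were CD68 (Pearson r = 0.858), a lysosomal protein of monocytes and macrophages, ALDH2 (0.850), an aldehyde dehydrogenase, FFAR4 (0.833), a fatty acid receptor, CD83 (0.833), a surface protein of activated presenting cells, and PLLP (0.823), among 10736 genes. For the brighter CIITA probe they were CHST10 (0.759), CCDC86 (0.738), UBE2E2 (0.715), SIGLEC6 (0.715) and MEF2C (0.714), the last a transcription factor of B cells among other cells. The arrays share animals, days and scan sessions, and these values describe the 24 arrays only.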

How the data were processed

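Globin-depleted RNA from PAXgene blood was labelled with Cy3 and hybridized to 1-colour Agilent rhesus arrays, 24 in all on 6 slides. The labels and the probe names give a rhesus design, whereas the study's methods name a human one. The deposited scanner files hold the intensity of each spot after the authors' scanner software subtracted local background (Feature Extraction 10.7 in the submitters' processing notes, 12.0.2.2 in the file headers, with the rheMac2 annotation build). The authors' deposited series table holds log2 values which, on the 18497 probes matched, differed from the log2 processed signal by a constant in each array, and it served as an alternative.

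Spots marked as outliers were dropped, replicate spots were averaged per probe on the log2 scale, and each array was shifted to the median array (pre-irradiation replicate 2). The number of arrays limits the precision. Gene names came from the scanner output (23054 probes) or, by accession, from a RefSeq table (541), and 20008 probes had none. Probes above background on 4 or more arrays were tested with limma 3.58.1 in R 4.3.3, each pair of groups in a fit of its own without a block (the study's methods name class comparisons and no block), two-sided, with Benjamini-Hochberg adjustment over all probes and a threshold of 0.005 (0.05 for the sex interaction). Differences between animal numbers were tested by a moderated F over all 24 arrays with the group in the fit. Correlations and figures were made with Python 3.11.15, and the scripts were tested on simulated data.

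The replicate numbers of the labels were checked as animals by the deviations of arrays from their group means. For the same number these correlated with r of 0.133 to 0.409 between pre-irradiation and day 3, 0.171 to 0.458 for day 5 and 0.129 to 0.440 for day 7. The medians between numbers were negative, which the removal of the group means favours by itself. The labels do not say that arrays of a group came from separate animals, so p-values measure the spread between these arrays, which may be technical in part.

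All class II genes and CD74 are named, each in its brightest probe, with other probes where call or direction differed. From the lists of pathway genes and cell type markers the 3 called genes with the largest change of each day are named, except 1 that is not reported here, and the B cell, monocyte and dendritic cell lists stand for the cells that carry class II. For the likeness to CD74 and CIITA the 5 genes of highest r are given. The class II genes and these lists were chosen with earlier results of these data known. A difference in log2 signal is relative to all probes. For a probe not above background on any array of the dimmer group, a bound is given as at least so many fold: the brighter group's mean was set against a floor on each dimmer array, which is the lowest signal of any probe above background there, or the probe's signal where that is higher.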

Additional observations from a re-analysis of the deposited data

Results flagged for a closer look

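Values of the 12 brightest probes were checked for a single array far from the others of its group, in 48 groups of 4 to 7 arrays, of which chance marks about 1 in 20, and 2 stood out. MAMU-DMB on the day 3 array of animal 1 gave 12.99, while the other 3 day 3 arrays gave 13.99 to 14.07, so that the gap was 0.925 of the range of the group. MAMU-DRA on the pre-irradiation array of animal 7 gave 13.59, while the other 6 gave 14.53 to 14.86, a gap of 0.743 of the range. This array lies in the denominator of the changes of animal 7, whose day 3 signal was higher than before irradiation for 10 of 10 genes without the DO chains.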

How the results depend on the processing

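The number of class II probes called against pre-irradiation, 3 on each day, became 0 on each day with a normexp background. That setting added an offset of 50 and called only 139, 239 and 315 of all probes on days 3, 5 and 7. It gave log2 differences of -0.92, -0.49 and -0.73 for MAMU-DOA and -1.16, -1.16 and -1.34 for MAMU-DOB. At an adjusted p under 0.05 the number of class II probes called was 5, 5 and 11. The replicate block gave 0 on day 3 and changed no other call. The scan session as a block gave 0 on day 3 and 0 on day 5, and the slide as a block 0 on day 3, fits that rest on 1 pre-irradiation array, of animal 5. The first session alone gave 1 on day 7. Without 1 of the animals the counts were 1 to 2 on day 3 (1 without animal 2, 4 or 7), 2 to 4 on day 5 and 1 to 3 on day 7 (1 without animal 4 or 5). Day 7 against day 3, with 0 called, gave 1 with the stricter filter on dim probes, 3 with all 24 arrays in 1 fit, 6 at an adjusted p under 0.05 and 1 with the slide as a random block, which was chosen after seeing the data. For animal numbers the count of 6 became 2 with a normexp background and 14 at an adjusted p under 0.05, and 5 without animal 5, also chosen after seeing the data. The scan session as a covariate for animal numbers could not be fitted, since it is fixed by group and animal, nor could the slide as a block for days 5 and 7 or for day 5 against pre-irradiation, where no slide held both groups, nor the session as a block between days 3 and 5, which share 1.

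Of 684 recomputed differences of single genes 638 kept direction and side of the threshold, 21 lost it, 8 gained it and 17 changed sign, none of them called and none of MAMU-DOA or MAMU-DOB; the cause was not tested. On day 3 these were MAMU-DMB with the session block (0.418) and the slide block (0.690), and MAMU-DPB (-0.0505) and MAMU-DRA (-0.0496) with the session block. On day 5 they were CD74 (0.0588), MAMU-DPB (0.112) and MAMU-DRA (0.0150) with quantile normalization, MAMU-DQA1 (0.205) with the session block, and MAMU-DRB1 (-0.124) and MAMU-DRB5 (-0.304) with a normexp background, and on day 7 MAMU-DRB1 (0.466) and MAMU-DRB5 (0.299) with quantile normalization. Without 1 of the animals the difference of MAMU-DMA ranged from -0.117 to 0.0392 and MAMU-DRA from -0.195 to 0.600 on day 3, CD74 from -0.436 to 0.106 and MAMU-DRA from -0.600 to 0.159 on day 5, and MAMU-DRB1 from -0.460 to 0.0238 on day 7. A normexp background moved the median of all probes by 0.14 on day 5. Precision is limited by 4 day 3 arrays, by dim MAMU-DOA signal after irradiation and by DRB probes that several gene copies share.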
